A study of Mus musculus with 9 samples.

Results

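The genes described here are 10 mouse genes of MHC antigen presentation, namely H2-K1, H2-D1, B2m, Psmb8, Psmb9, Tap1, H2-Aa, H2-Ab1, H2-Eb1 and Cd74, out of 21887 protein-coding genes. They were taken from a list of names and not from measured values. Their data are the positions, numbers and widths of peaks of accessible chromatin in endothelial cells, the lining cells of blood vessels, sorted by fluorescence from mouse lung. A distinct peak belonged to a gene when its centre fell in the gene body, and a centre in no body went to the closest gene end up to 100 kb away. Of the 10 genes, 9 had a mean of at least 1 peak over all libraries and were tested for peak number. The gene left out was Tap1, and Psmb9 reached that mean only through the adult libraries, so the numbers of both are given as a description, without a test.

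The accessible DNA was found with ATAC-seq, an assay that inserts tags into open chromatin with a transposase. Infant, young adult and mature adult mice each gave 3 libraries, and the labels give no age in days, strain, genotype or treatment. Separate animals for the libraries of 1 age are not stated, so each p-value below measures only the spread between these libraries. Each library had 1 list of peaks with no height or read number, so the depth behind a peak is unknown.

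The lists held 88856 to 94646 distinct peaks in the infant libraries, 67550 to 68366 in the young adult libraries and 59793 to 64208 in the mature adult libraries. The median gene therefore had a log2 difference in peak number of -0.31 between mature adults and infants and of -0.25 between young adults and infants. After scaling to the length of each list these medians were 0.14 and 0.13. Young adult library 3 and mature adult library 1 stood apart through narrower peaks, with median widths of 396 and 406 bp against 433 to 462 bp in the infant libraries. A gene or region is called changed below only where limma's adjusted p was under 0.05 in the same direction both with and without scaling. Fits that left out a library or changed another setting were run without scaling or centring. A call that held or was lost there refers to that scale only. Sorted endothelial cells were measured in bulk, so fewer open cells and less open chromatin per cell cannot be told apart.

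MHC class I molecules show peptides from inside the cell to CD8 T cells. The peptides are cut by the proteasome, carried into the endoplasmic reticulum by the TAP transporter and bound by a heavy chain paired with beta-2 microglobulin. MHC class II molecules show peptides from endosomes to CD4 T cells, and the invariant chain, encoded by Cd74, guides them there and blocks their groove on the way. Endothelial cells are known to carry class I, and those of lung capillaries are known to express class II genes. Class II genes are switched on by CIITA and class I genes by NLRC5, both of which act through factors bound to a shared promoter module with X and Y boxes.

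The starts of some of the genes are shown because each gene had a peak at or next to its start. The windows run from 250 bases before to 50 bases after a gene's start, are taken from RefSeq on GRCm38.p6 and read 5′ to 3′ along the gene. Capitals mark matches on either strand to 4 short motifs, which were chosen after the sequences had been seen. These are the Y box CTGATTGG, the core TGACG of cyclic AMP response elements, the interferon-stimulated element (GAAA, any 2 bases, GAAA) and the kappa B site (GGGGA, any base, T, any base, CC). The windows lie at chr17:34287774-34288073 on the minus strand for H2-Aa, chr17:34305617-34305916 on the plus strand for H2-Eb1, chr17:34187306-34187605 on the plus strand for Tap1, chr2:122147437-122147736 on the plus strand for B2m and chr17:34000298-34000597 on the minus strand for H2-K1.
H2-Aa: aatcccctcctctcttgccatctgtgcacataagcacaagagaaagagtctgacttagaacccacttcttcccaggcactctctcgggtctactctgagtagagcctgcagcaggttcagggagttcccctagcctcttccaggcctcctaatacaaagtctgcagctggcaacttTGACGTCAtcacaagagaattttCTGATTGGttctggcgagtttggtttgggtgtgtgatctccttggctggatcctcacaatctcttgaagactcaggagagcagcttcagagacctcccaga
H2-Eb1: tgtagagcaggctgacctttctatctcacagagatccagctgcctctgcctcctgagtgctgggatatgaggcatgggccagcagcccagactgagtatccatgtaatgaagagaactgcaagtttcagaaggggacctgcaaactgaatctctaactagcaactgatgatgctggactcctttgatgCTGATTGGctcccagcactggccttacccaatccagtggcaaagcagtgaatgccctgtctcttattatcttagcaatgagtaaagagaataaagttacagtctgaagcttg
Tap1: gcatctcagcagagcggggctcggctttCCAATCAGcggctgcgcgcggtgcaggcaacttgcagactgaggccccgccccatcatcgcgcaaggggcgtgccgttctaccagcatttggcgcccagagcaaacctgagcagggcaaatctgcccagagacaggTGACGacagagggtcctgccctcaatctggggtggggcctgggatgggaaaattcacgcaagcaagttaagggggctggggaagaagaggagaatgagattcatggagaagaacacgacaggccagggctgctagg
B2m: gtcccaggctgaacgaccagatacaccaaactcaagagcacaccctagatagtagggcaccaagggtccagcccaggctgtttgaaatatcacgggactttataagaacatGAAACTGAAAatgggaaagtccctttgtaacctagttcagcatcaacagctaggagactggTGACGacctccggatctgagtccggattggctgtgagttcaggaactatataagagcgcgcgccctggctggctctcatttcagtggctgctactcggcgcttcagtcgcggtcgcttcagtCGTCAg
H2-K1: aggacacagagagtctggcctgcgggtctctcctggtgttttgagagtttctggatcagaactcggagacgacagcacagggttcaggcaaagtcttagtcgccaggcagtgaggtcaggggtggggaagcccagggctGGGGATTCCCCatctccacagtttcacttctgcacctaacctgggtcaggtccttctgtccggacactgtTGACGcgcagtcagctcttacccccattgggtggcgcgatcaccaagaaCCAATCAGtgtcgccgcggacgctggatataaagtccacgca

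The table held windows for 8 of the 10 genes, and none was searched for H2-Ab1 and Cd74. The Y box letters stood in the windows of H2-K1, H2-D1, Psmb9, Tap1, H2-Aa and H2-Eb1, and 4.1% of 32851 windows in the table held them. TGACG stood in those of H2-K1, H2-D1, B2m, Psmb9, Tap1 and H2-Aa, against 20.8% of all windows. In H2-Aa its matches on both strands overlap in TGACGTCA. The interferon-stimulated element was found in B2m, against 3.44% of all windows, and the kappa B site in H2-K1 and H2-D1, against 1.18%. The H2-K1 and H2-D1 matches to it overlap each other on the 2 strands. The Psmb9 and Tap1 genes start back to back with 225 bp between them, and 275 of the 300 bp of their windows are the same DNA. The windows of H2-K1, H2-D1, B2m, Psmb8, Psmb9 and Tap1 were covered by peaks over all 300 bp in all 9 libraries. That of H2-Aa was covered over 288 to 300 bp and that of H2-Eb1 over 276 to 300 bp.

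Each of the 10 genes had a peak at or next to its start in all 9 libraries, infant ones included. In mature adults against infants, B2m was called higher in peak number, while 1.42% of 14511 tested genes were called higher and 13.9% lower. In young adults against infants, H2-D1 was called higher and H2-K1 lower, against 1.1% and 9.26% of all genes. In mature against young adults none was called, with 0.103% and 0.662% of all genes called higher and lower. Without young adult library 3, the B2m number was higher by 0.74 (log2) in mature than in young adults and passed without scaling. The remaining libraries of each age then had equal numbers, so that test had no spread between libraries to rest on. As the intervals below show, the B2m call came from a split peak and the H2-K1 call from short distant peaks. At H2-D1 the added peaks lay mostly within regions that had a peak in all 9 libraries.

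**Figure D1:**
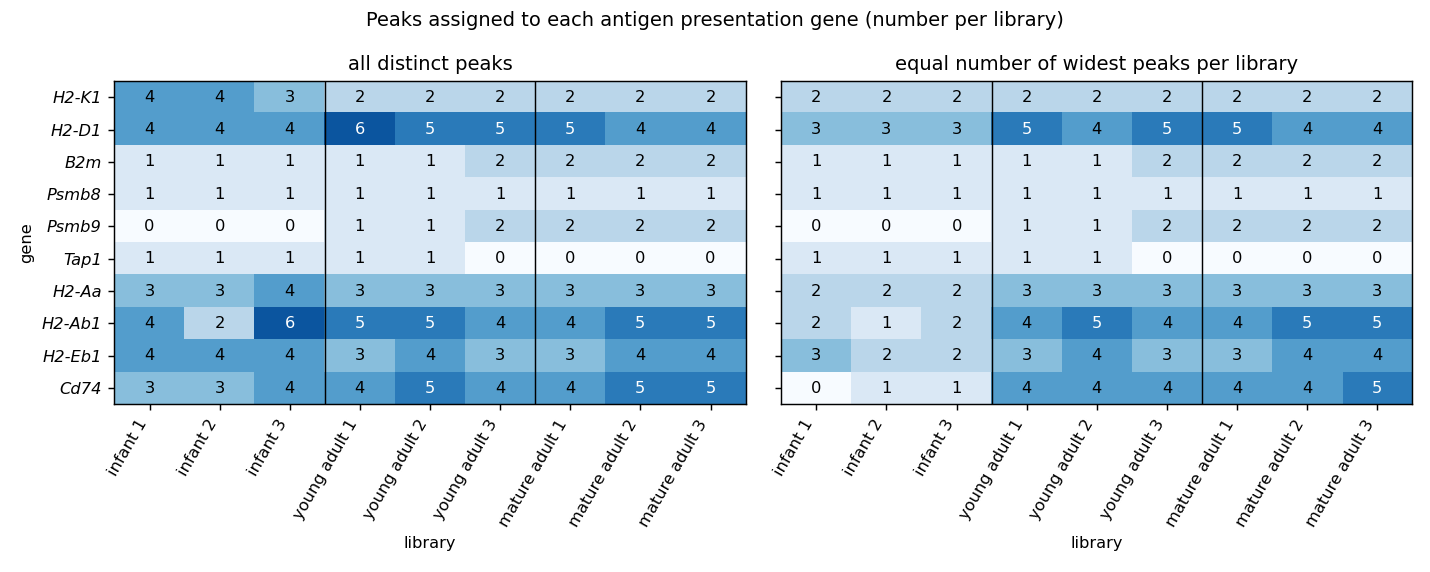
Number of peaks given to each gene in each of 9 libraries, infant libraries on the left, then young adult, then mature adult. The left panel counts all distinct peaks and the right panel the 59793 widest peaks of each library. In the right panel Cd74 has 0 or 1 peak in the infant libraries and 4 or 5 in the adult ones.

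H2-K1 and H2-D1 encode the classical class I heavy chains. The peak over the start of H2-K1, at chr17:33999494-34000861, was 1306, 1288 and 1293 bp wide in infants, 1327, 1328 and 1245 bp in young adults and 1279, 1274 and 1315 bp in mature adults. These widths overlapped at all ages, and their log2 difference between mature adults and infants was -0.01 (SE 0.04, limma adjusted p = 0.901). The peak over the start of H2-D1, at chr17:35262513-35263886, was 1360, 1309 and 1275 bp in infants, 1333, 1307 and 1051 bp in young adults and 1256, 1343 and 1340 bp in mature adults, again overlapping. The 1051 bp of young adult library 3 are the sum of 2 pieces. When widths were centred on each library's median, the log2 difference between mature adults and infants was 0.27 at the start peak of each gene, with limma adjusted p = 0.0203 for H2-K1 and 0.0196 for H2-D1. As the test did not pass without centring, neither was called.

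H2-K1 had 4, 4 and 3 peaks in infants and 2 in each young adult and each mature adult library. This was a log2 difference of -0.73 (SE 0.10) for both adult ages, with limma adjusted p = 0.00344 and 0.0185 for young adults without and with scaling and 0.00244 and 0.0539 for mature adults, so only the young adult difference was called. The peaks missing in adults were short and far from the gene. One, at chr17:33982303-33982461, was 150, 150 and 158 bp wide in infants and lay 13630 bp beyond the gene's lower end, and the other, at chr17:33984097-33984403, was 306 and 293 bp wide in infant libraries 1 and 2 and lay 11762 bp away. Peaks present in the 3 infant libraries and in none of the adult ones made up 9.7% of all 126907 merged regions, and those present in 2 infant libraries alone 6.56%. Counted within 10 kb, H2-K1 had 2 peaks in each of the 9 libraries. Besides the start peak this was one at chr17:33991725-33992496, 3902 bp from the lower end. It was 744, 442 and 411 bp wide in infants, 642, 441 and 220 bp in young adults and 318, 589 and 311 bp in mature adults. Those widths overlapped (log2 difference of mature adults from infants -0.40, SE 0.44, limma adjusted p = 0.517).

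H2-D1 had 4 peaks in each infant library, 6, 5 and 5 in young adults and 5, 4 and 4 in mature adults. The young adult libraries were all above the infant ones, by 0.37 on the log2 scale (SE 0.10, limma adjusted p = 0.0471, and 0.00209 with scaling). This call rested on 1 or 2 more peaks per young adult library. Among these, the peak at chr17:35274253-35274450 was a region of its own, 197 bp wide in young adult library 1 alone. The others lay within regions that held a peak in all 9 libraries, as further pieces there. All H2-D1 peaks together covered 2749, 2624 and 2371 bp in infants and 2712, 2535 and 1865 bp in young adults. The call was lost when infant library 1, 2 or 3 was left out (adjusted p = 0.129, 0.121 and 0.111), young adult library 1, 2 or 3 (0.106, 0.0735 and 0.0747), or mature adult library 2 or 3 (0.0619 and 0.0615). A further peak below the gene, at chr17:35259075-35259428, was 283, 251 and 296 bp in infants, 313, 325 and 343 bp in young adults and 314, 305 and 334 bp in mature adults. Every adult width there was above every infant width, and the difference of 0.20 between mature adults and infants was not called (SE 0.10, limma adjusted p = 0.196). Widths that did not overlap in that direction were found at 5.44% of the 41144 regions with a peak in all 9 libraries. Above the gene, the peaks 2504 and 7400 bp from its end were on average narrower in mature adults than in infants. Their widths overlapped, and neither was called. The log2 differences were -0.13 (SE 0.34, limma adjusted p = 0.799) and -0.40 (SE 0.33, adjusted p = 0.395).

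B2m encodes beta-2 microglobulin, the light chain of every class I molecule, and its gain in number came from a peak that was cut in 2. B2m had 1 peak in each infant library, 1, 1 and 2 in young adults and 2 in each mature adult library, all within the same region at chr2:122147332-122148876. The infant peak ran unbroken over 1487, 1491 and 1504 bp. In the mature adult libraries the peak over the gene's start was 852, 833 and 898 bp wide and a separate one further into the gene was 292, 321 and 372 bp. Young adult library 3, one of those with narrow peaks, was split in the same way, and young adult libraries 1 and 2 were not. The log2 difference in number was 0.74 between mature adults and infants (SE 0.19, limma adjusted p = 0.0293, and 0.00236 with scaling). Infant libraries had equal numbers, as had mature adult ones. Without scaling, the spread between libraries in that test therefore came from young adult library 3, which is outside the comparison.

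The B2m call was lost without infant library 1, 2 or 3 (adjusted p = 0.0837, 0.0799 and 0.0744) and without mature adult library 1, 2 or 3 (0.0756, 0.0705 and 0.0734). The bases covered were not more. Infants had the 1487 to 1504 bp given above, young adults 1536, 1542 and 1254 bp, and mature adults 1144, 1154 and 1270 bp. The log2 difference of -0.33 between mature adults and infants (SE 0.08, limma adjusted p = 0.0316) was -0.05 after centring (adjusted p = 0.559), so the width was not called changed. B2m lies inside the body of Patl2 in the gene table, and its peaks were given to the shorter gene.

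**Figure D2:**
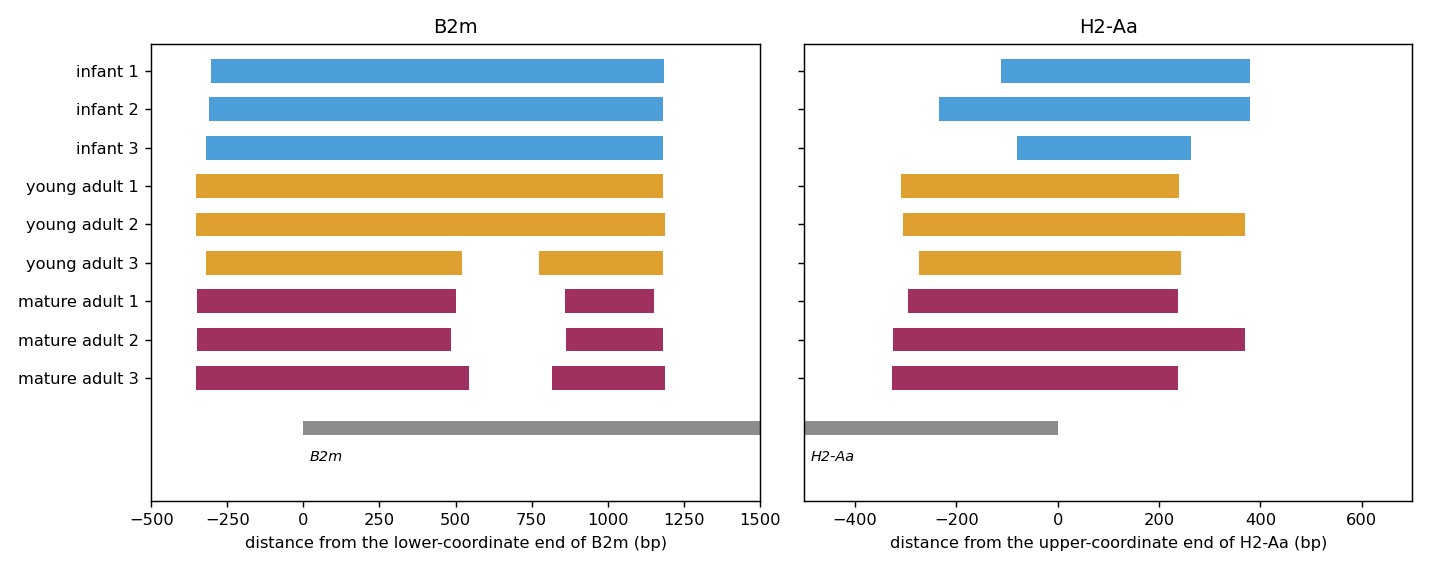
Peaks at the start of B2m (left) and H2-Aa (right) in each library, infant at the top and mature adult at the bottom, plotted as distance in bp from the gene's end at its start, with the gene body in grey. The B2m peak is in 2 pieces in young adult library 3 and all mature adult libraries, and the H2-Aa peak reaches further into the gene in all adult libraries than in any infant library.

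Psmb8 and Psmb9 encode catalytic subunits of the immunoproteasome, and Tap1 a subunit of the peptide transporter. Psmb8 had 1 peak in each of the 9 libraries, at chr17:34197320-34198780. It was 1404, 1361 and 1338 bp wide in infants, 1354, 1449 and 1333 bp in young adults and 1144, 1317 and 1363 bp in mature adults. These widths overlapped, with a log2 difference of -0.11 between mature adults and infants (SE 0.07, limma adjusted p = 0.289) that was 0.17 after centring (adjusted p = 0.0499).

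Psmb9 had no peak in infants, 1, 1 and 2 in young adults and 2 in each mature adult library, while Tap1 had 1 in each infant library, 1, 1 and 0 in young adults and none in mature adults. The adult libraries alone brought Psmb9 over the mean of 1 peak needed for testing, and Tap1 stayed under it, so no test of either number is given. No peak appeared or vanished behind these numbers. The peak over the shared start of both genes, at chr17:34186904-34188293, was present in all 9 libraries and began within the same 10 bp. It was 1292, 1351 and 1071 bp wide in infants, 1291, 1380 and 1023 bp in young adults and 1023, 1033 and 1056 bp in mature adults. What moved was its centre, which lay 90.5 to 111 bp from the end of Psmb9 in mature adults, where Psmb9 is the nearer gene, and at least 114.5 bp from it in infants, where Tap1 is.

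The second Psmb9 peak, at chr17:34170280-34171869, also stood in all 9 libraries, between H2-DMb1 and Psmb9. It was 1420, 1424 and 1429 bp wide in infants, 1071, 1039 and 874 bp in young adults and 927, 1051 and 1216 bp in mature adults, so every adult peak was narrower than every infant one. Its edge toward H2-DMb1 lay further in, and its centre was nearer to Psmb9, in every adult library, whereas in infants the centre was nearer to H2-DMb1. Between young adults and infants its width fell by 0.52 on the log2 scale (SE 0.11, limma adjusted p = 0.03, and 0.0426 after centring). That call was lost without infant library 1, 2 or 3 (adjusted p = 0.0947, 0.0846 and 0.0788) and without young adult library 2 or 3 (0.0514 and 0.0667). When every peak touching a gene or the 2 kb around it was counted, Psmb9 had 1 peak and Tap1 2 peaks in each of the 9 libraries.

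**Figure D3:**
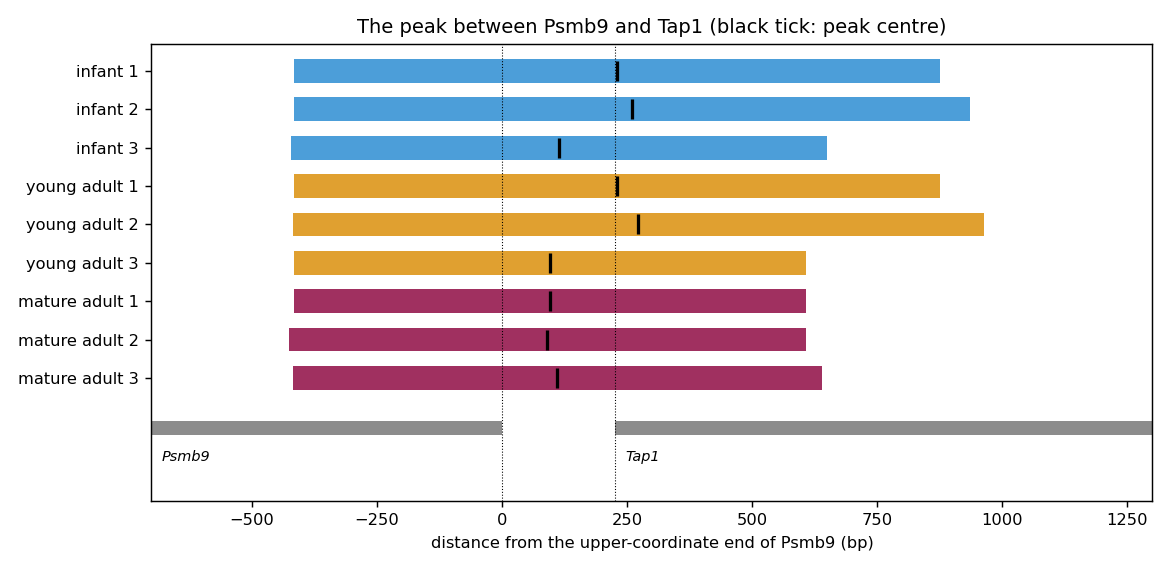
The peak between Psmb9 and Tap1 in each library, infant at the top and mature adult at the bottom, plotted as distance in bp from the end of Psmb9. Black ticks mark peak centres, dotted lines the facing ends of both genes, which are 225 bp apart, and all peaks begin at nearly the same base while their other edge differs.

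Cd74 encodes the invariant chain, and the peak at its start had the largest width difference between mature adults and infants among the regions of the 10 genes. This peak, at chr18:60803326-60804106, was 251, 226 and 359 bp wide in infants, 760, 513 and 430 bp in young adults and 636, 702 and 748 bp in mature adults. Every adult peak was wider than every infant peak, and the adult ages overlapped. Mature adults averaged 695 ± 56.3 bp and infants 279 ± 70.7 bp (SD, n = 3 libraries each). The width was 2.54-fold higher in mature adults than in infants, a log2 difference of 1.35 (SE 0.24, limma adjusted p = 0.0106, and 0.00409 after centring). Ordered from the most widened region to the most narrowed one, this was the 71st of 41144 differences. It passed in every alternative that could be computed for it, leaving out each library included, with adjusted p between 0.00409 and 0.0441. Where peaks had to cover 50% of a region, the infant peaks were too short for it to be tested.

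The Cd74 peak grew on both sides. It began on average 244 bp further out in mature adults than in infants and ended 172 bp further into the gene. In young adults against infants the log2 difference was 1.01 (SE 0.24, limma adjusted p = 0.0475, and 0.0202 after centring). That call was lost without infant library 1 or 2 (adjusted p = 0.146 and 0.132), without young adult library 1 or 2 (0.0936 and 0.0809) and without mature adult library 1, 2 or 3 (0.0591, 0.0714 and 0.0683). It was also lost without both libraries that stand apart (0.0544). The young adult libraries were all above the infant ones.

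A second Cd74 peak lay inside the gene at chr18:60805521-60806133, with its centre 1978 bp from the start. It was 342, 360 and 225 bp wide in infants, 567, 503 and 513 bp in young adults and 541, 521 and 541 bp in mature adults. The adult libraries lay close together and all above the infant ones. The log2 difference from infants was 0.82 for mature adults (SE 0.18, limma adjusted p = 0.0192, and 0.00787 after centring) and 0.80 for young adults (SE 0.18, adjusted p = 0.0378, and 0.0184 after centring). The call for mature adults was lost without mature adult library 1 (adjusted p = 0.0543) and without both libraries that stand apart (0.0593). The call for young adults was lost without infant library 1 (0.0714), young adult library 1, 2 or 3 (0.0967, 0.0681 and 0.0814), mature adult library 2 or 3 (0.0569 and 0.0576), or both libraries that stand apart (0.0948).

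Between these, a peak at chr18:60804757-60805183 was absent from infant libraries 1 and 2 and 196 bp wide in infant library 3, and was 333, 220 and 276 bp in young adults and 305, 384 and 394 bp in mature adults. The pattern of 1 infant library and all 6 adult libraries was shared by 526 regions, 0.414% of all. Another peak, at chr18:60806443-60806846, was 150, 222 and 197 bp in infants, 290, 357 and 202 bp in young adults and 150, 272 and 289 bp in mature adults. Those widths overlapped (log2 difference of mature adults from infants 0.28, SE 0.31, limma adjusted p = 0.52). The other 3 Cd74 peaks stood in 1 adult library each. Of all regions, 5.9% stood in 1 young adult library alone and 6.67% in 1 mature adult library alone.

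In number, Cd74 had 3, 3 and 4 peaks in infants, 4, 5 and 4 in young adults and 4, 5 and 5 in mature adults. The log2 difference between mature adults and infants was 0.43 (SE 0.14, limma adjusted p = 0.064), and 0.92 with scaling (adjusted p = 0.00131), so the number was not called changed. All Cd74 peaks together covered 743, 808 and 977 bp in infants, 1950, 1756 and 1421 bp in young adults and 1632, 2029 and 2240 bp in mature adults. Among the 59793 widest peaks of each library, Cd74 held 0, 1 and 1 in infants, 4 in each young adult library and 4, 4 and 5 in mature adults, a description only, since the infant numbers alone would not have passed the filter.

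**Figure D4:**
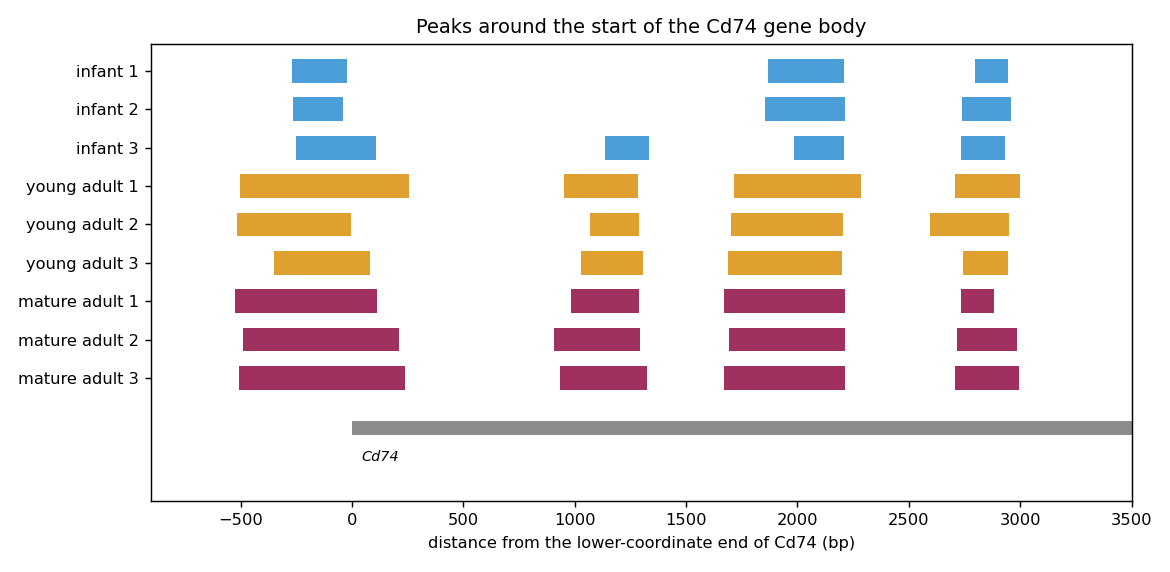
Peaks around the start of Cd74 in each library, infant at the top and mature adult at the bottom, plotted as distance in bp from the start of the gene body (grey). The peak at the start and the one near 1978 bp inside the gene are wider in all 6 adult libraries than in the 3 infant ones.

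Cd74 and the class II genes are also active in B cells, macrophages and dendritic cells, so the markers of those cells are given here. The 6 B cell markers held 11 to 12 peaks in all in infants, 6 to 17 in young adults and 6 to 7 in mature adults. The 12 myeloid markers held 17 to 19 in infants, 13 to 17 in young adults and 10 to 15 in mature adults, and Itgam, Itgax, Cd68 and Lyz2 had none in any library. Of the 12 myeloid markers 5 were tested for number, and none was called on both scales in any comparison. Their numbers in mature adults against infants had a median log2 difference of -0.36, with -1.59 for Flt3, -0.49 for Cd209a, -0.36 for Spi1, -0.19 for Ptprc and no difference for Siglecf. Marco and a region near Cd209a are described because they were higher in adults. Marco, a macrophage receptor, had no peak in infants or young adults and 1, 2 and 2 in mature adults. Csf1r, another of the 12 markers, went the other way, with 2 in each infant library, 0, 1 and 0 in young adults and none in mature adults. Neither Marco nor Csf1r was among the markers tested. Near Cd209a, a dendritic cell gene, a peak at chr8:3736839-3737555 was 150, 287 and 312 bp wide in infants, 706, 697 and 702 bp in young adults and 716, 706 and 698 bp in mature adults, a log2 difference of mature adults from infants of 1.57 (SE 0.25, limma adjusted p = 0.00692, called on both scales). It was the single region called among the 7 common regions of the myeloid markers in mature adults against infants, while Cd209a itself had 2 peaks in each infant library, 1 in each young adult library and 1, 2 and 1 in mature adults. The part of such cells in the width of the Cd74 peaks was not tested.

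H2-Aa encodes the alpha chain of the class II molecule I-A. The peak over its start, at chr17:34287496-34288203, was 491, 613 and 344 bp wide in infants, 549, 675 and 517 bp in young adults and 534, 694 and 565 bp in mature adults. These widths overlapped, and the log2 difference of mature adults from infants was 0.34 (SE 0.22, limma adjusted p = 0.285, and 0.0548 after centring). The edge inside the gene did not overlap between infants and adults. It lay between 34287589 and 34287742 in infants, between 34287514 and 34287549 in young adults and between 34287496 and 34287527 in mature adults, on average 174 bp further into the gene in mature adults than in infants. The edge outside the gene overlapped between infants and adults and lay on average 59 bp nearer to the gene in mature adults than in infants. No test was run on edges, and the share of all regions with such an edge is not given here.

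A distal H2-Aa peak at chr17:34295793-34296796, 8472 bp before the gene's start, was 793, 571 and 564 bp wide in infants, 873, 624 and 680 bp in young adults and 741, 821 and 839 bp in mature adults. Its log2 difference of mature adults from infants was 0.33 (SE 0.17, limma adjusted p = 0.182, and 0.0272 after centring), which did not pass on both scales. Another one, at chr17:34291629-34291911, was 233 to 279 bp wide in all 9 libraries. H2-Aa had 3 peaks in every library except infant library 3, which had 4. Among the widest 59793 peaks per library it had 3 in each adult and 2 in each infant library.

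H2-Ab1 encodes the beta chain of I-A. None of its peaks was called changed in width, and 3 of them differed in which libraries held them. The peak over its start, at chr17:34263012-34263841, was 768, 772 and 672 bp wide in infants, 628, 817 and 495 bp in young adults and 487, 664 and 642 bp in mature adults. In infant library 3, young adult library 1 and mature adult libraries 2 and 3 this peak stood in 2 pieces, and the width is their sum. The summed widths of mature adults were all below those of infants there. Their log2 difference was -0.31 (SE 0.19, limma adjusted p = 0.265, and -0.04 after centring). Next to the start peak, 1508 bp before the gene, the peak at chr17:34261377-34262061 was 343, 284 and 266 bp in infants, 499, 353 and 374 bp in young adults and 362, 370 and 550 bp in mature adults. All adult widths were above all infant ones, and the log2 difference of 0.50 between mature adults and infants passed after centring only (SE 0.21, limma adjusted p = 0.126, and 0.0293 after centring).

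Further out, 5416 bp before H2-Ab1, a peak at chr17:34257554-34258067 was absent from infant libraries 1 and 2 and 173 bp wide in infant library 3, and was 397, 355 and 281 bp in young adults and 339, 423 and 321 bp in mature adults. Presence in 1 infant library and all 6 adult libraries was found at 0.414% of all regions. Inside the gene, a peak at chr17:34264033-34264341 stood in all 6 adult libraries at 259 to 297 bp and in infant libraries 1 and 3 at 169 and 252 bp. That pattern was shared by 0.709% of all regions. A neighbouring one at chr17:34264567-34265096 went the other way and stood in infant libraries 1 and 3 at 384 and 364 bp, in young adult library 2 at 284 bp and in no mature adult library. Presence in 2 infant libraries, 1 young adult library and no mature adult library was found at 0.987% of all regions. In all H2-Ab1 had 4, 2 and 6 peaks in infants, 5, 5 and 4 in young adults and 4, 5 and 5 in mature adults, numbers that overlapped (log2 difference of mature adults from infants 0.30, SE 0.33, limma adjusted p = 0.573).

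H2-Eb1 encodes the beta chain of I-E. The peak over its start, at chr17:34305594-34306096, was 468, 286 and 322 bp wide in infants, 414, 407 and 389 bp in young adults and 422, 492 and 417 bp in mature adults, with infant library 1 inside the adult range. The log2 difference of mature adults from infants was 0.34 (SE 0.18, limma adjusted p = 0.214, and 0.0401 after centring). A peak 850 bp before the gene, at chr17:34304735-34305298, was 460, 496 and 401 bp in infants, 541, 501 and 510 bp in young adults and 383, 532 and 541 bp in mature adults. The mature adult widths overlapped the infant ones. The young adult widths were all above the infant ones, as at 5.58% of all common regions, and their log2 difference of 0.20 was not called (SE 0.15, limma adjusted p = 0.436). Inside H2-Eb1, a peak at chr17:34309723-34310232 was 346, 444 and 223 bp wide in infants and 222 bp in young adult library 2, and stood in no mature adult library. Another at chr17:34310570-34310847 stood in mature adult libraries 2 and 3 alone, at 277 and 227 bp. Of all regions, 2.53% stood in all infant libraries, 1 young adult library and no mature adult library, and 0.448% in 2 mature adult libraries alone. The H2-Eb1 peak at chr17:34313106-34313947, also inside the gene, stood in all 9 libraries with overlapping widths. Its log2 difference of mature adults from infants was -0.04 (SE 0.48, limma adjusted p = 0.956).

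Over the 10 genes there were 34 merged regions, and 21 of them had a peak in all 9 libraries. In mature adults against infants the width was above that of infants at 8 of the 11 class II regions, with a median log2 difference of 0.33. It was above at 1 of the 7 class I regions, with a median of -0.13, and at none of the 3 regions of Psmb8, Psmb9 and Tap1, with a median of -0.25. Over all 41144 common regions the median was -0.19. After centring these medians were 0.61 for class II, 0.15 for class I, 0.03 for proteasome and transport and 0.09 for all regions. The widths of mature adults and infants did not overlap at 4 of the 21 regions where mature adults were wider and at 4 where they were narrower, beside 5.44% and 43.9% of all common regions. The regions called on both scales were 2 of 21 wider, both at Cd74, and none narrower, beside 1.92% wider and 6.81% narrower of all common regions.

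In young adults against infants the same 2 Cd74 regions were called wider and the region between H2-DMb1 and Psmb9 narrower, beside 1.12% and 2.09% of all common regions. Widths of these ages did not overlap at 5 wider and 1 narrower region, beside 5.58% and 32.7%. The medians were 0.20 for class II, -0.10 for class I and -0.13 for all regions. Mature and young adults share the infant libraries in these comparisons. Between mature and young adults none of the 21 regions was called, beside 0.00729% wider and 0.0535% narrower of all, and the class II median was 0.04. Without young adult library 3 the B2m region was narrower in mature than in young adults before centring (-0.37, limma adjusted p = 0.0318), and likewise without both libraries that stand apart (-0.35, adjusted p = 0.0474). Their widths did not overlap at 1 wider region, at the start of H2-Eb1, and at none narrower, beside 3.35% and 9.35%.

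**Figure D5:**
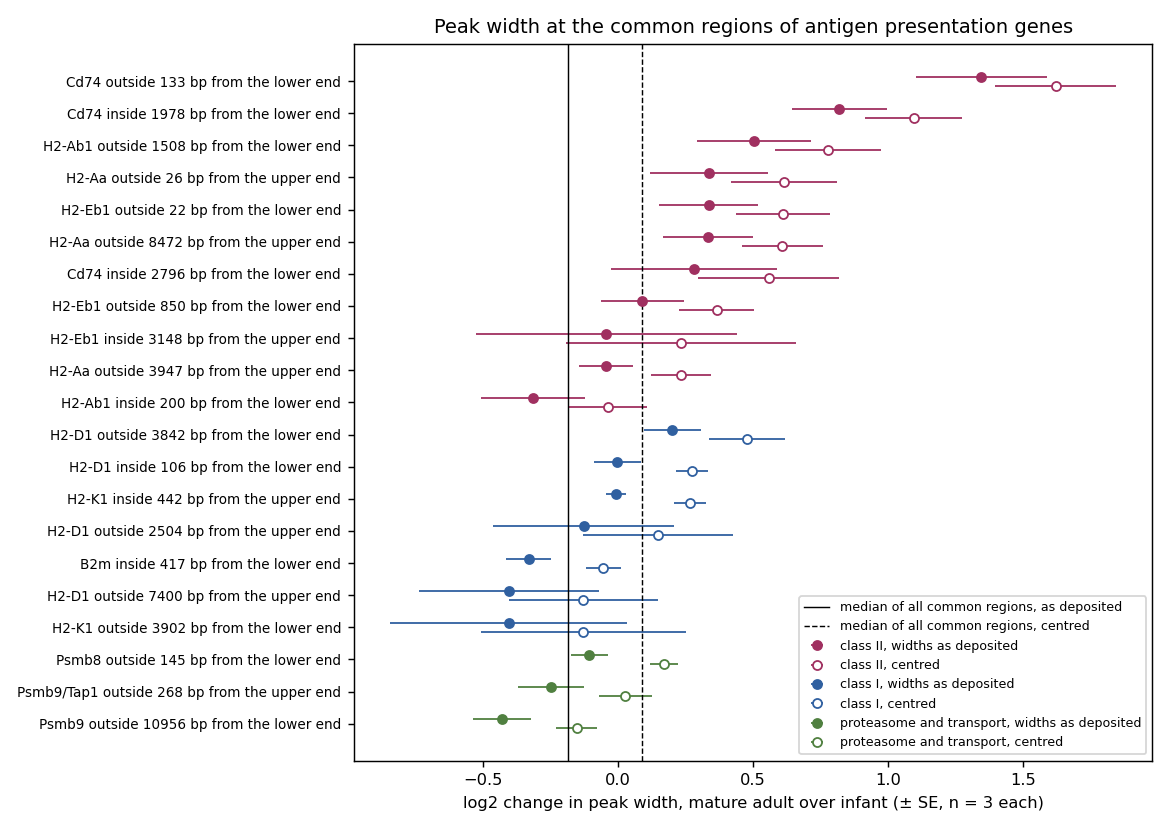
Log2 difference in peak width between mature adult and infant libraries at the 21 regions with a peak in all 9 libraries, with standard errors (n = 3 each). Regions are named by gene and by the distance of their centre inside or outside the gene body, filled points are widths as deposited, open points are centred, and lines mark the medians of all 41144 regions. The 2 topmost points are the called Cd74 regions.

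Among 57 other genes of antigen presentation, 55 were in the gene table and 52 were tested for peak number. In mature adults against infants 1 was called higher and 5 lower, beside 1.42% and 13.9% of all genes. The one higher was Erap1, an aminopeptidase that trims class I peptides, with 2 peaks in each adult library and 1 in each infant library. Equal numbers within each age left its test no spread between libraries to rest on. As at B2m, the region was the same one throughout, at chr13:74638928-74640539. Its peaks covered 1611, 1578 and 1565 bp in infants, 1237, 1223 and 1228 bp in young adults and 1318, 1260 and 1333 bp in mature adults, so that an unbroken infant peak stood in 2 pieces in adults.

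The genes called lower were Mr1, which presents microbial vitamin metabolites, the class I-like gene H2-Q10, H2-DMb1, whose product helps load class II, Marchf8, a ubiquitin ligase that acts on class II, and Creb1, a factor that binds cyclic AMP response elements. Mr1 had 7, 7 and 5 peaks in infants, 3 in each young adult library and 2, 2 and 3 in mature adults (log2 difference of mature adults from infants -1.27, SE 0.17, limma adjusted p = 0.00286). H2-Q10 had 3, 3 and 1 in infants, 1 in each young adult library and none in mature adults, and as a member of a multigene family it may share reads with its relatives. It reached the mean of 1 peak needed for testing only through the infant libraries, so its call is no support for a difference. The H2-DMb1 loss is the peak described above that came nearer to Psmb9. Marchf8 lost a peak of 465, 516 and 473 bp, found in the 3 infant libraries and in no adult one. Both H2-DMb1 and Marchf8 had 2 peaks in each infant library and 1 in each adult library. Their tests therefore had no spread between libraries to rest on. Creb1 had 10, 11 and 12 peaks in infants, 8, 7 and 7 in young adults and 6, 5 and 6 in mature adults. In young adults against infants Erap1 was called higher and Mr1, H2-DMb1 and Marchf8 lower, and between the adult ages none of the 52 was called.

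In width, 4 of the list's 146 common regions were called wider and 4 narrower in mature adults against infants, beside 1.92% and 6.81% of all common regions. With so few regions, the wider share was not read as a difference from all common regions. The wider ones included a region of each of the MHC activators, and no other common region of either gene was called. In Ciita, the class II activator, a peak at chr16:10500516-10501180 was 345, 340 and 444 bp wide in infants, 529, 641 and 544 bp in young adults and 582, 600 and 554 bp in mature adults (log2 difference of mature adults from infants 0.63, SE 0.13, limma adjusted p = 0.0176). It lies inside the gene, 20834 bp from the nearer end. In Nlrc5, the class I activator, a peak at chr8:94485193-94486264, also inside the gene, had 624, 458 and 604 bp in infants, 908, 1035 and 843 bp in young adults and 1037, 1028 and 888 bp in mature adults (log2 difference 0.82, SE 0.14, limma adjusted p = 0.00807). At both, every adult width was above every infant width, and both were also called in young adults against infants. The Nlrc5 call in mature adults held without each library in turn (adjusted p at most 0.0286). The Ciita call was lost without infant library 1 or 2 (adjusted p up to 0.0644). In young adults it was lost without infant library 1 or 2, any young adult library, or mature adult library 2 or 3 (up to 0.117), and the Nlrc5 call without young adult library 1 or 2 (up to 0.0524).

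The other wider regions lay at Nfyc and H2-Q6. Nfyc encodes a subunit of NF-Y, the factor that binds the Y box. The peak 2486 bp outside it, at chr4:120833629-120834500, had 316, 314 and 167 bp in infants, 842, 628 and 740 bp in young adults and 757, 773 and 769 bp in mature adults (log2 difference of mature adults from infants 1.59, SE 0.24, limma adjusted p = 0.00634). H2-Q6 belongs to a multigene family, and its reads may come from near-identical copies. Its call was lost without 7 of the 9 libraries in turn, namely infant library 2 or 3, young adult library 1 or 2 and each mature adult library (adjusted p up to 0.107). The narrower regions lay at Creb1, Jak2, Irf2 and Irf8, and the Creb1 call was lost without infant library 1, 2 or 3 or mature adult library 1 (adjusted p up to 0.0598). The largest of these differences was at Irf8, an interferon regulatory factor, where a distal peak at chr8:120796138-120796795 had 653, 595 and 657 bp in infants, 492, 414 and 225 bp in young adults and 158, 160 and 226 bp in mature adults (log2 difference -1.83, SE 0.29, limma adjusted p = 0.00667). In young adults against infants the 4 wider regions lay at Creb1, Ciita, Nfyc and Nlrc5 and the 2 narrower ones at H2-Oa and between H2-DMb1 and Psmb9, out of 146 and beside 1.12% and 2.09% of all common regions. The Creb1 call in young adults, at another region than the narrower one, was lost without any infant library, any young adult library or mature adult library 3 (adjusted p up to 0.114).

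The 8 endothelial markers held 180 to 191 peaks in infants, 158 to 175 in young adults and 145 to 171 in mature adults, and each had peaks in all 9 libraries. Fibroblast and mural markers held 56 to 59 peaks in infants, 23 to 25 in young adults and 21 to 22 in mature adults. Epithelial markers held 22 to 29 in infants, 10 to 17 in young adults and 11 to 12 in mature adults, and Sftpc had none in any library. T and NK cell markers held 17 to 22 in infants, 13 to 18 in young adults and 13 to 15 in mature adults, with Cd3g and Nkg7 at 0 throughout. The part of such cells in the peaks present in infants alone, such as those of H2-K1 and Marchf8, was not tested.

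H2-D1 had the most peaks of the 10 genes over the 9 libraries. The genes most like it in number were Gm45988, whose counts differed from its own by 2 peaks in sum over the 9 libraries, and Ppp1r12c and Plcb2, which differed by 3 peaks each. As 10 genes lay within that distance, the last 2 were separated from the others by mean peak width.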

How the data were processed

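ATAC-seq was performed on lung endothelial cells of 3 ages, with 3 libraries per age and 1 deposited peak list per library. Per the file headers, the authors' deposited lists give base positions only, so depth and the precision it gives are unknown. Per the submitters' processing notes, cutadapt, Bowtie2 and Picard were used, without versions, with build mm10. How peaks were called, at what threshold and with what read shift is not given in the sources used here. Between 31.0% and 38.9% of the intervals filled several rows and were counted once. Starts may be off by 1 bp, since their base is not stated.

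Peaks were assigned with the RefSeq gene table of GRCm38.p6. A centre inside several gene bodies went to the shortest gene. Peaks that overlapped by at least 1 bp across libraries were merged into 126907 regions. In R 4.3.3, limma 3.58.1 with a trended variance was fitted over all 9 libraries to log2(number of peaks + 0.5) per gene and to log2 of the summed width at common regions. A log2 difference in number is therefore on the log2(value + 0.5) scale and understates the change of genes with few peaks. p-values were adjusted by Benjamini-Hochberg over all 14511 genes or 41144 regions. The fits were tested on simulated data. Alternatives were scaling, the added constant, the filter, repeated intervals, the widest peaks, the assignment, coverage of at least 50% of a region, left-out libraries and a replicate block.

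All 10 genes are named, and other antigen presentation genes where both scales passed. The genes, lists and tests were chosen with earlier results of these data known.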

Additional observations from a re-analysis of the deposited data

How the results depend on the processing

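The lists give no depth, so the absence of a peak does not show closed chromatin. The counts in this section are of genes or regions that passed on 1 scale, without scaling unless stated, and so exceed those called on both scales. Scaling changed the split of calls more than their number. In mature adults against infants 206 genes were higher and 4251 lower in number, and 4415 higher and 2014 lower with scaling. In young adults against infants these were 160 and 2526, and with scaling 3786 and 1355, which is 5141 calls against 2686. For width, centring gave 5742 wider and 2811 narrower regions against 791 and 6733 in mature adults against infants, and 1275 and 862 against 460 and 2388 in young adults against infants. With the widest 59793 peaks per library, 2291 genes were called in mature adults against infants, where 4457 were called with all peaks, and 1400 in young adults against infants. Counting peaks that touch a gene or 2 kb around it left 1720 calls in young adults against infants. Requiring peaks to cover 50% of a region left 3347, 1473 and 1 width calls in mature adults against infants, young adults against infants and mature against young adults, against 7524, 2848 and 40. Without the 2 libraries that stand apart, 494 genes and 491 regions were called in mature against young adults, against 135 and 40. The causes of these shifts were not tested.

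Leaving out each library gave 2713 to 4642 gene calls in mature adults against infants, 1614 to 2854 in young adults against infants and 110 to 434 in mature against young adults. Width calls ran from 3176 to 9312, from 1171 to 3325 and from 0 to 514 in the same comparisons. Leaving out the first infant library moved the counts most in both comparisons with infants. Between the adult ages it was the third young adult library. Same-numbered libraries did not deviate together (9 correlations from -0.17 to 0.16), so the numbers were not taken to pair them. With a replicate block, 82 genes and 0 regions were called in mature against young adults and 1635 regions in young adults against infants, and the B2m number (adjusted p = 0.0537) and, in young adults against infants, both Cd74 widths (0.097 and 0.0655) and the width between H2-DMb1 and Psmb9 (0.077) were no longer called.

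Among the 10 genes, 8 values changed sign between the main fit and an alternative and had adjusted p under 0.05 in only 1 of them. With repeated rows counted, the B2m number was -0.36 (log2) in mature adults against infants (limma adjusted p = 0.0854). The H2-D1 number was then -0.13 in young adults against infants (adjusted p = 0.554), so neither reversed value passed. The other values passed in the alternative and not in the main fit. H2-Aa was 0.35 with scaling and 0.49 among the widest peaks in mature adults against infants, and 0.49 among the widest peaks in young adults against infants. Centred widths in mature adults against infants were 0.27 at the start of H2-K1, 0.27 at that of H2-D1 and 0.17 at Psmb8. Centring moves the log2 difference of every region in a comparison by the same amount, so this move is not particular to these regions. The cause of the other sign changes was not tested. The H2-K1 call ended within 10 kb, among the widest peaks and with peaks touching a gene or 2 kb around it. The B2m and H2-D1 calls ended in the last of these (adjusted p = 0.0972 and 0.518), and the H2-D1 call within 10 kb too (0.0573). Without the 2 libraries that stand apart, the call at the inner Cd74 region ended in mature adults against infants (adjusted p = 0.0593) and both Cd74 calls in young adults against infants (0.0544 and 0.0948).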
